A study of Mus musculus with 12 samples.

Results

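The comparison described here is that of left lungs from Intu knockout mouse embryos with left lungs from wild-type embryos at embryonic day 12.5 (E12.5), measured by RNA sequencing. It uses the 6 libraries labelled as left lung, out of 12 in the series: 3 from the knockout and 3 from the wild type. The other 6 libraries are the right lungs of the same groups and enter only where both sides are compared. All embryos had a C57BL/6 background and came from natural matings of mice that carried an Intu knockout allele, so the wild-type embryos are offspring of carriers too. The labels name no Cre, transgene or treatment. They give neither the removed exons of Intu nor a separate embryo for each library, and the spread behind the p-values may therefore be technical.

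Intu is a member of the CPLANE complex (ciliogenesis and planar polarity effectors), which helps to bring cargo to the base of the primary cilium, the single antenna-like organelle of most cells. In vertebrates, Hedgehog signals are read through this cilium: ligand binding releases Smoothened, and the GLI transcription factors then switch on targets such as Gli1 and Hhip. In the embryonic lung the airway epithelium secretes Sonic hedgehog, and the surrounding mesenchyme, the source of airway smooth muscle, is the tissue that responds to it.

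The deposited table used here covers 31078 genes, those of chromosomes 1 to 7, 10 and X with a stretch of 8. Ptch1, Acta2, Myh11 and Tagln were therefore not analysed here. The 6 left libraries held 10316382 to 10753386 counts over these genes, of which the top 20 genes made up 6.59% to 6.94%. Levels are given as normalised CPM (gene counts scaled to library size with TMM factors) and differences as log2 of knockout over wild type with the standard error (SE). Replicates of a group differed beyond sampling noise, with a chi-square per degree of freedom of 5.03 to 14. In a principal component analysis of the 6 libraries the first component, with 35.5% of the variance, had the 3 wild-type libraries at 5.89 to 18.5 and the 3 knockout libraries at -20.5 to -9.67. Knockout library 1 had 40.1 CPM of Alb, a liver gene, which lay between 0.19 and 2.69 CPM in the other 5. Xist, the RNA of the inactive X chromosome, was at 1270, 1661 and 2160 CPM in the wild-type libraries and at 117, 912 and 496 CPM in the knockout libraries, and all 5 tested genes of the sex-linked list were lower in every knockout library, without being called (Xist adjusted p = 0.275). Of the genes called below, only Tnmd lies on the X chromosome. The sample titles give no sex, so a difference in sex between the groups cannot be told apart from genotype, for genes on any chromosome. The part of liver RNA and of Xist level in the other results was not tested.

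Of 9174 genes with enough counts, 49 (0.534%) passed edgeR's quasi-likelihood test at a Benjamini-Hochberg adjusted p under 0.05 and are named called genes. The knockout was higher for 12 (0.131%) and lower for 37 (0.403%). All 49 had groups that did not overlap, which was so for 1409 of all tested genes (15.4%), with 654 higher (7.13%) and 755 lower (8.23%) in the knockout. More than 2-fold changes were found for 18 called genes, 6 higher and 12 lower. The median log2 change over all tested genes was 0.0046. With the right libraries added to the fit, which treats libraries of one number as independent, 112 of 9519 genes (1.18%) were called, 48 of the 49 among them. The count also turned on single libraries: it was 11 without wild-type library 1, 15 without wild-type library 2 and 19 without knockout library 3. Gli1, Synpo2, Actg2, Myl9, Fhdc1, Tspan2, Cxcl12, Pltp, Tnmd and Matn4 were called whichever library was left out, and all 49 genes kept the same sign. The other 39 lost their call without wild-type library 1, and 36 of them without at least 1 more library. Calcb, Rarres1, Laptm5, Pot1a, Alx1, Mfap3l, Cckar, Pwp1 and Lxn (9 genes) lost it whichever library was left out. Where 1 such adjusted p is given below for a gene, it is the highest of its 6 fits.

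**Figure D1:**
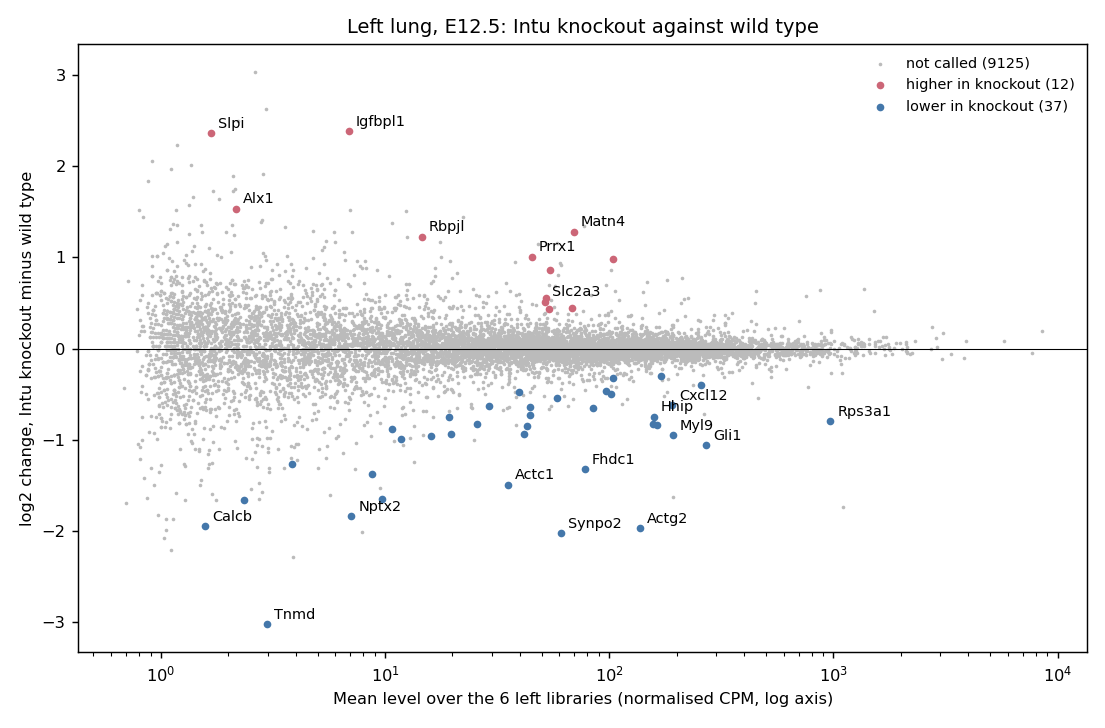
Log2 change (knockout minus wild type, left lung) of each of the 9174 tested genes against its mean level over the 6 left libraries in normalised CPM (log axis). The 12 called genes that were higher and the 37 that were lower are coloured, and the spread of the uncalled genes (grey) widens at low levels.

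The smooth muscle list, described below, held 5 called genes of 15, so the promoters of all called genes were searched for a muscle-gene element, and the 3 that hold it are printed here. RefSeq promoter windows (GRCm38.p6, 250 bases before to 50 after the start) were found for 31 of the 37 genes lower in the knockout and 8 of the 12 higher. The CArG box, the element bound by serum response factor in muscle and actin genes, was searched as CC, then 6 bases that are each A or T, then GG, which reads alike on both strands. It was found for 3 of the 31 lower genes (9.68%), 0 of the 8 higher genes and 103 of the 6634 tested genes with a window (1.55%). Over all 32851 windows of the table the share was 1.63%. Of the 3 lower genes with the box, only Myl9 is among the 5 called members of the smooth muscle list. Below are the 250 bases before the start of each of these 3 genes, with the CArG box in capitals. The window of Myl9 (myosin regulatory light chain 9) is chr2:156775214-156775463 on the plus strand, and its box begins 161 bases before the start. That of Actc1 (cardiac alpha-actin) is chr2:114052876-114053125 on the minus strand, with the box 47 bases before the start. That of Glipr2 (a Golgi-associated protein) is chr4:43957452-43957701 on the plus strand, with the box 84 bases before the start.
Myl9: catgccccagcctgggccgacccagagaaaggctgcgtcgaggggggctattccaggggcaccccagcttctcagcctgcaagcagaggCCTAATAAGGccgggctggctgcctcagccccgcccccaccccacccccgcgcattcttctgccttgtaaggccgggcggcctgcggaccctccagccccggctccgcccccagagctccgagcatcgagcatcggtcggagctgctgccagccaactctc
Actc1: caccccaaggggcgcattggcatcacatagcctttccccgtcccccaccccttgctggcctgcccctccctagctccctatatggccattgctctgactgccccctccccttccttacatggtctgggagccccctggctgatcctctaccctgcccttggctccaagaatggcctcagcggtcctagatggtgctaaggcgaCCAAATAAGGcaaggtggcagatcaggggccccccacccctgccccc
Glipr2: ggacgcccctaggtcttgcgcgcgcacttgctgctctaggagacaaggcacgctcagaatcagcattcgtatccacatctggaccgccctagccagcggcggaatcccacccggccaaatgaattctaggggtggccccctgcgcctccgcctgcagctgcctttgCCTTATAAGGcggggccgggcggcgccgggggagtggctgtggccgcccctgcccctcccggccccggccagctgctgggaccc
A match describes the letters of the window and not a bound site. The letters GACCACCCA, bound by GLI factors and searched on both strands, were in 0 of the 31 and 0 of the 8 windows and in 20 of the 6634 (0.301%), and Gli1 and Actg2 had no window to search.

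Intu itself (chr3:40531286-40704774, GRCm38) was at 30.5, 32.4 and 30.4 CPM in the wild-type libraries and at 27.4, 27.1 and 26.2 CPM in the knockout libraries. The groups did not overlap, but the log2 change of -0.21 (SE 0.085) did not pass (adjusted p = 0.431), and the exact two-sided permutation test gave p = 0.1, the smallest that 3 against 3 libraries allow. Because the removed exons are not given, a count over the whole gene does not check the knockout label. The other measured CPLANE genes, Fuz (0.08) and Rsg1 (0.27 on the log2 scale), did not pass either.

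Gli1 and Hhip, 2 targets of Hedgehog signalling, fell in the knockout. Of 15 listed targets, 6 were in the table and tested, and 2 (33.3%, beside 0.534% of all genes) were called, both lower. The median log2 change of the 6 was -0.39. Like all lists used here, this one was written with earlier results of these data known, so its share is a description and no test. Gli1 (chr10:127329882-127341974), the transcription factor most often read as a gauge of the pathway, was at 344, 362 and 393 CPM in wild type and at 167, 186 and 176 CPM in the knockout. Every knockout library lay far below every wild-type library, a log2 change of -1.06 (SE 0.067, edgeR adjusted p = 0.000104). Hhip (chr8:79965851-80058006), a membrane protein that binds and limits Hedgehog ligands, was at 211, 168 and 215 CPM against 106, 128 and 120 CPM, again without overlap (log2 change -0.75, SE 0.10, edgeR adjusted p = 0.0184). This call was lost without knockout library 3 (adjusted p = 0.0809) or wild-type library 1 (0.0984). For both genes the exact permutation p was 0.1. The cell-cycle target Ccnd1 was at 577, 539 and 592 CPM against 574, 555 and 568 CPM, with overlapping groups. Ccnd2 (-0.03) and Bcl2 (-0.17 on the log2 scale) also overlapped between groups.

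None of the measured genes that carry the signal was called. Of the 15 tested pathway genes other than targets, 13 had a positive log2 change, and the median was 0.073. The ligand gene Shh was at 102, 103 and 98.6 CPM in wild type and at 98.6, 127 and 112 CPM in the knockout (log2 change 0.16, adjusted p = 0.62). Smo, which encodes Smoothened, differed by -0.02 and the transcription factor Gli2 by 0.04 on the log2 scale. The widest difference was that of Scube2, a secreted factor that helps to release the ligand (0.62, SE 0.25, adjusted p = 0.432). Among 25 primary cilium genes 0 were called. Bbs7, of the complex that carries membrane proteins into the cilium, had the smallest p (log2 change -0.44, adjusted p = 0.179), and Tctn2, of the transition zone at the base of the cilium, was at 0.18. Of 11 planar cell polarity genes 0 were called, with log2 changes from -0.14 (Vangl1) to 0.32.

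Smooth muscle genes held more called genes than any other list. Of 15 tested members 5 were called (33.3%, beside 0.534% of all genes), all lower, 12 of the 15 had a negative log2 change, and the median was -0.29. This list too was written with earlier results of these data known, and its share is no test. Since whole lungs were sequenced, fewer smooth muscle cells and less RNA per cell cannot be told apart. Actg2 (chr6:83512905-83536265), the gamma-actin of visceral smooth muscle, was at 217, 194 and 244 CPM in wild type and at 51.9, 59.5 and 55.8 CPM in the knockout. All 3 knockout libraries were thus far below the lowest wild-type library, with a log2 change of -1.97 (SE 0.092, edgeR adjusted p = 2.63e-05). Synpo2 (chr3:123076519-123236149), an actin-binding protein of muscle, was at 92.0, 85.5 and 116 CPM against 23.4, 24.4 and 24.2 CPM, and the 3 knockout values were nearly equal (log2 change -2.03, SE 0.11, edgeR adjusted p = 5.25e-05). Myl9 was at 251, 248 and 261 CPM against 157, 121 and 116 CPM, highest among the knockouts in library 1 (log2 change -0.95, SE 0.10, edgeR adjusted p = 0.00451). Lmod1 (leiomodin 1, which nucleates actin filaments) was at 14.4, 14 and 13.1 CPM against 8.18, 7.77 and 6.64 CPM, with no overlap (log2 change -0.88, edgeR adjusted p = 0.0324, and 0.141 without wild-type library 1). Hhip, described above, is the other called member, and it is counted among the Hedgehog targets as well.

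The other 10 smooth muscle genes were not called. Pdlim3, a Z-disc protein, was at 13.5, 12.8 and 17.6 CPM against 5.84, 8.92 and 7.02 CPM and did not pass (log2 change -1.01, adjusted p = 0.0652). Tpm2 (-0.29) and Cald1 (-0.26), which encode tropomyosin and caldesmon, had groups that did not overlap but were not called. Des, the muscle intermediate filament gene, overlapped between groups (89.5, 97.5 and 93.2 CPM against 70.8, 95.1 and 80.7 CPM), as did Flna (-0.12), the actin cross-linker filamin A. Fhl1, Itga8 and Synm had positive log2 changes of 0.12 to 0.19. The number of called members was 3 without knockout library 3 or wild-type library 1 and 6 without knockout library 2.

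**Figure D2:**
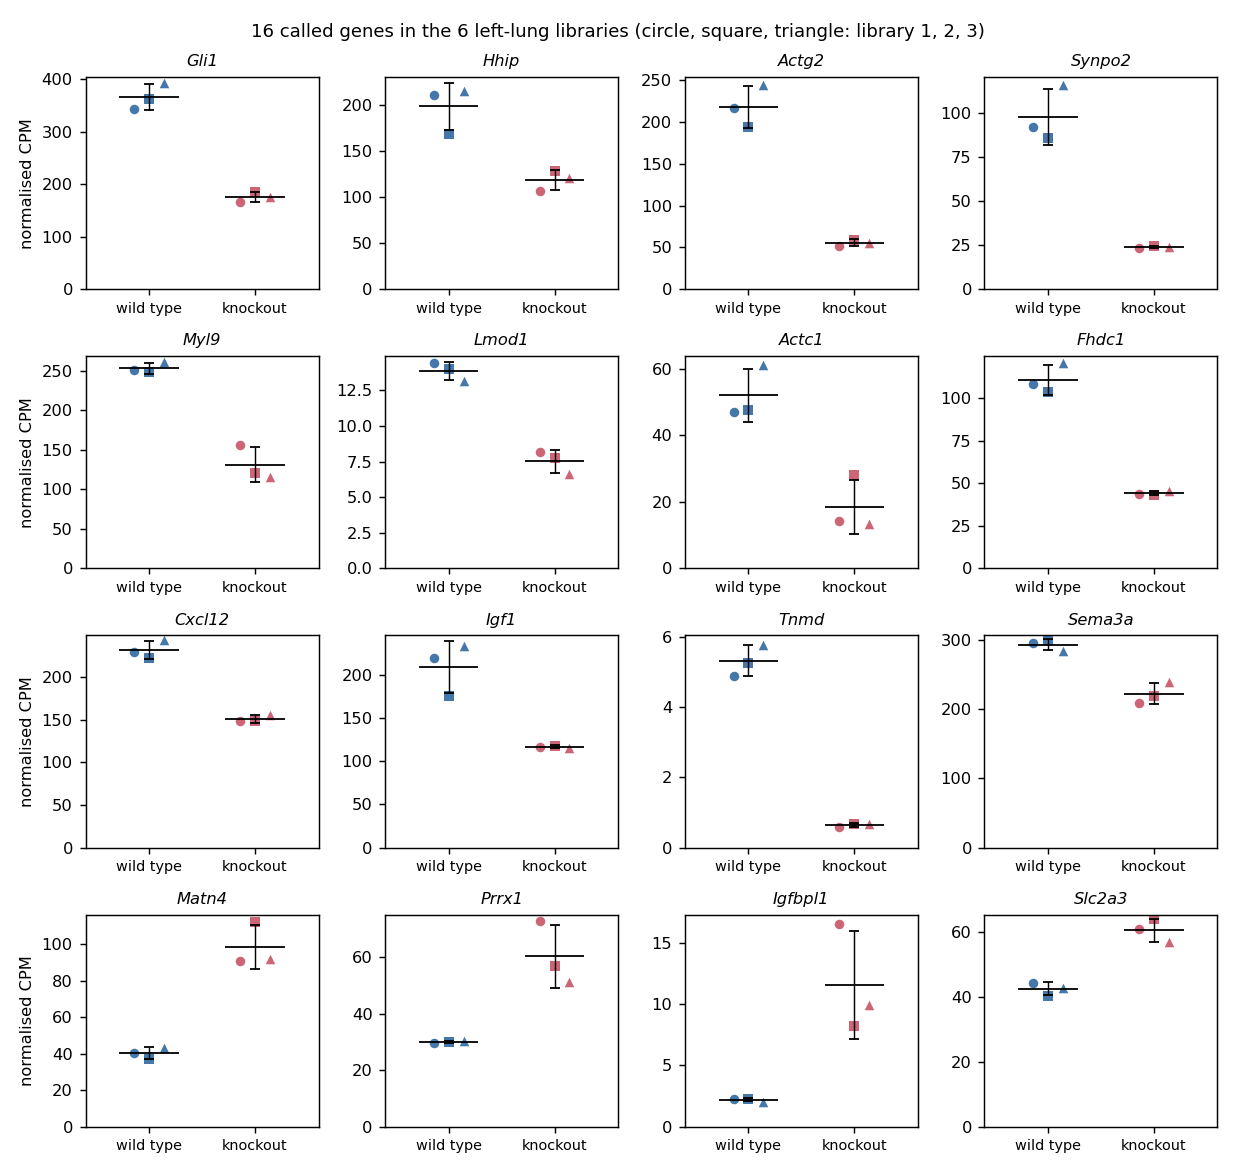
Normalised CPM of 16 called genes in the 6 left libraries (circle, square and triangle for libraries 1, 2 and 3; line and bar for the group mean and SD, each panel starting at 0). In each panel the 3 wild-type and 3 knockout libraries do not overlap; the first 12 genes are lower and the last 4 higher in the knockout.

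Fhdc1, Actc1, Jph2, Camk2d, Slc24a3, Chrm2, Cckar, Capza1 and Tspan2 also fell. They are placed together here by their known roles, after their values were seen, and most belong to no list used here. Fhdc1 (chr3:84442198-84480429), a formin that acts on actin and microtubules, was at 108, 104 and 121 CPM in wild type and at 43.8, 43.3 and 45.8 CPM in the knockout (log2 change -1.32, SE 0.075, edgeR adjusted p = 5.25e-05). The 3 knockout values were close together and far below the wild type. Actc1 (chr2:114047282-114053548), whose promoter is printed above, was at 47.0, 47.7 and 61.1 CPM against 14.2, 27.9 and 13.3 CPM. Knockout library 2 was the highest of the 3 knockout libraries, still below every wild-type library (log2 change -1.49, SE 0.25, edgeR adjusted p = 0.0392, and 0.125 without wild-type library 1). Actc1 was the only called gene of 7 tested cardiac muscle genes. The others had positive log2 changes of 0.16 to 2.23, the last being Myl2 at 0.093 to 0.77 CPM in wild type and 0.96 to 2.97 CPM in the knockout (adjusted p = 0.172). Jph2, a junctophilin that holds the plasma membrane next to the calcium store, fell by 0.85 on the log2 scale, Camk2d, a calcium/calmodulin-dependent kinase, by 0.54, and Slc24a3, a sodium/potassium/calcium exchanger, by 0.94. The receptor genes Chrm2 (muscarinic acetylcholine receptor M2) and Cckar (cholecystokinin A receptor) fell by 0.96 and 0.47. Capza1, which caps actin filament ends, fell by 0.83 and the tetraspanin gene Tspan2 by 0.72. Without wild-type library 1 the adjusted p was 0.0631 for Jph2, 0.159 for Camk2d, 0.129 for Slc24a3, 0.101 for Chrm2 and 0.167 for Cckar, while Capza1 reached 0.113 without knockout library 3.

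Cxcl12, Igf1, Sema3a, Pltp and Ecm1, which encode secreted proteins, fell. They too were placed together after their values were seen, and of the 31 tested extracellular matrix genes 0 were called and 22 had a positive log2 change. Cxcl12 (chr6:117168535-117181367), a chemokine that guides endothelial and blood cells, was at 229, 223 and 244 CPM in wild type and at 148, 149 and 156 CPM in the knockout. The spread within each group was small beside the difference (log2 change -0.62, SE 0.056, edgeR adjusted p = 0.00142). Igf1 (chr10:87858265-87937042), the growth factor, was at 219, 176 and 233 CPM against 117, 118 and 115 CPM (log2 change -0.84, SE 0.095, edgeR adjusted p = 0.00621, and 0.0537 without wild-type library 1). Sema3a, a repellent guidance cue, was at 295, 300 and 284 CPM against 209, 219 and 239 CPM (log2 change -0.40, edgeR adjusted p = 0.0281, and 0.133 without wild-type library 1), and was the only called gene of 11 semaphorin and plexin genes. Pltp, which moves phospholipids between lipoproteins, fell by 0.65 on the log2 scale and Ecm1, a matrix protein, by 0.93 (edgeR adjusted p of Ecm1 0.125 without wild-type library 1). Of Pltp's exon bases 19.3% overlap Ctsa on the opposite strand, and the strand setting of the counting is not given, so reads of that stretch cannot be assigned to either.

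Among called genes with low levels, Tnmd (tenomodulin, a marker of tendon cells, chrX:133850980-133865577) had the widest difference. It was at 4.90, 5.27 and 5.78 CPM in wild type and at 0.58, 0.67 and 0.67 CPM in the knockout (log2 change -3.02, SE 0.25, edgeR adjusted p = 0.000686). The other 7 tested tendon genes were not called, and Tnc, a matrix protein of tendon and mesenchyme, had the values 49.7, 40.0 and 58.0 CPM against 25.4, 36.3 and 20.8 CPM (log2 change -0.84, adjusted p = 0.124). Nptx2, a neuronal pentraxin, fell by 1.84, and Rarres1, named for its response to retinoic acid, by 1.26 on the log2 scale. Rarres1 was the only called gene of 9 retinoic acid genes. Nap1l5, an imprinted nucleosome assembly gene, fell by 1.65, the POU transcription factor gene Pou3f3 by 1.37 and Fam162b by 1.00 (log2). The interferon-induced genes Usp18 and Ifitm1 fell by 1.66 and 0.82. Without wild-type library 1 the adjusted p was 0.0631 for Nptx2, 0.125 for Rarres1, 0.105 for Pou3f3, 0.122 for Fam162b and 0.119 for Usp18, while Nap1l5 reached 0.112 without wild-type library 2 and Ifitm1 0.0809 without knockout library 3. Also lower were Mfap3l, a membrane protein gene, at -0.75, Eva1a, a gene of autophagy and cell death, at -0.64, Glipr2 at -0.50, Lxn at -0.32 and Pwp1, which encodes a nucleolar WD-repeat protein, at -0.31 on the log2 scale. Glipr2 lost its call without knockout library 3 or wild-type library 1 or 2, Eva1a without any library but knockout library 2, and Mfap3l, Lxn and Pwp1 whichever library was left out.

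Of the 12 genes higher in the knockout, Matn4 (matrilin 4, a cartilage matrix protein, chr2:164389393-164405160) had the smallest p. It was at 40.6, 37.3 and 43.3 CPM in wild type and at 91.0, 112 and 91.7 CPM in the knockout (log2 change 1.28, SE 0.099, edgeR adjusted p = 0.00051). None of the other 8 tested cartilage genes was called: Col9a3, a chain of cartilage collagen IX, was at 0.59 (adjusted p = 0.197). Acan, which encodes the cartilage proteoglycan aggrecan, was at 0.96, 1.51 and 1.77 CPM against 0.68, 0.58 and 0.38 CPM, without overlap (-1.35, adjusted p = 0.21). Sox5 (-0.07), Sox6 (0.09) and Col11a1 (0.0036) were near 0 on the log2 scale. Matn4 lies in a row of 3 called genes on chromosome 2. Slpi (secretory leukocyte protease inhibitor) lies on the same minus strand, 0.297 kb beyond the end of Matn4 in the direction of transcription. Rbpjl, a transcription factor gene related to Rbpj, overlaps Matn4 by 2020 bases on the opposite strand, 149 of them exonic in both genes. The strand setting of the counting is not given, so reads of that exonic stretch cannot be assigned to either gene. Whether the 3 changes arose separately was not tested. Slpi was at 0.77, 0.28 and 0.56 CPM against 3.31, 2.21 and 2.89 CPM (log2 change 2.36, SE 0.37, edgeR adjusted p = 0.0281), and Rbpjl at 8.26, 8.0 and 9.88 CPM against 16.1, 26.5 and 18.8 CPM (1.23, SE 0.20, edgeR adjusted p = 0.0339). All 3 were higher in every knockout library than in any wild-type library. The calls of Slpi and Rbpjl were lost without some libraries, with adjusted p up to 0.115 (without knockout library 3) and 0.148 (without wild-type library 1). The only other pair of called genes within 100 kb was Lxn and Rarres1 on chromosome 3, both lower and 15 kb apart.

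Prrx1 and Alx1, both homeobox genes, rose. Of 22 tested mesenchyme regulators these 2 were called (9.09%, beside 0.534% of all genes), and the median of the 22 was 0.086. Groups did not overlap for 7 of the 22 with the knockout higher and for 1 with the knockout lower, beside 7.13% and 8.23% of all genes. Prrx1 (chr1:163245119-163313710), a homeobox gene of limb and skull mesenchyme, was at 29.6, 29.9 and 30.5 CPM in wild type and at 72.8, 56.7 and 51.2 CPM in the knockout (log2 change 1.01, SE 0.12, edgeR adjusted p = 0.00988, and 0.0814 without wild-type library 2). The wild-type values were close together, while the knockout values spread widely and were highest in library 1. Alx1, a homeobox gene of craniofacial mesenchyme, was at 1.15, 1.32 and 0.84 CPM against 3.41, 2.88 and 3.37 CPM (log2 change 1.54, SE 0.26, edgeR adjusted p = 0.0429), and was not called in any of the 6 fits without 1 library (adjusted p 0.0596 to 0.167). Its relative Alx4 (0.77, adjusted p = 0.351) and Tbx3 (0.22) and Tbx5 (0.20), T-box genes of the lung mesenchyme, had groups that did not overlap but were not called. The member with the lower knockout was Sall4, a zinc-finger transcription factor gene, at 6.24, 8.37 and 7.74 CPM against 4.38, 1.92 and 4.33 CPM (-1.07, adjusted p = 0.163). Prrx2 (0.03), Pdgfra (-0.0037) and Tcf21 (-0.11) overlapped between groups.

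The other higher genes had mixed roles. Igfbpl1 (chr4:45809468-45826923), related to the binding proteins of insulin-like growth factors, was at 2.30, 2.26 and 2.05 CPM against 16.6, 8.25 and 9.91 CPM (log2 change 2.39, SE 0.29, edgeR adjusted p = 0.00882, and 0.0779 without wild-type library 2). Its highest value was in knockout library 1, the library with liver RNA, and the other 2 were still above every wild-type library. Rbm46, an RNA-binding protein known from germ cells, rose by 0.87 and Cpm, which encodes carboxypeptidase M, by 0.55 on the log2 scale. Pot1a, a telomere-end protein, and Zgrf1, a helicase, both rose by 0.44. Without wild-type library 1 the adjusted p was 0.141 for Cpm and 0.148 for Pot1a, and without wild-type library 2 it was 0.112 for Rbm46 and 0.15 for Zgrf1. Rpl34-ps1 (0.99), a ribosomal pseudogene, and Rps3a1 (-0.80), a ribosomal protein gene with near-identical copies, are uncertain, since reads can be shared with their copies.

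Glycolysis genes had higher values in the knockout, by an amount that depended on 1 library. All 16 tested members had a positive log2 change and 11 had groups that did not overlap, beside 7.13% of all genes in that direction, yet only 1 was called (6.25%, beside 0.534%). The median log2 change was 0.46. The called gene was Slc2a3, the glucose transporter GLUT3, at 44.4, 40.4 and 42.8 CPM in wild type and 60.9, 64.1 and 56.9 CPM in the knockout (log2 change 0.51, SE 0.076, edgeR adjusted p = 0.026, and 0.112 without wild-type library 2). Ldha, which makes lactate, was at 1101, 1144 and 948 CPM against 1502, 2193 and 1328 CPM (0.65, adjusted p = 0.145), and Pdk1, which holds pyruvate out of the mitochondria's cycle, at 73.1, 72.6 and 71.4 CPM against 109, 193 and 93.3 CPM (0.87, adjusted p = 0.157). Knockout library 2 was the highest of the 3 knockout libraries for 15 of the 16 genes. Without it the median was 0.22, 15 of 16 were positive and 3 were called.

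Genes induced by low oxygen had the same outlying library. Of 9 tested genes 0 were called, 6 had non-overlapping groups with the knockout higher (beside 7.13% of all genes), and the median was 0.39, or 0.16 without knockout library 2. Bnip3, a mitophagy receptor and target of hypoxia-inducible factor, was at 32.4, 30.6 and 26.8 CPM in wild type and at 42.2, 118 and 37.8 CPM in the knockout (log2 change 1.14, SE 0.38, adjusted p = 0.32). P4ha1, a collagen prolyl hydroxylase subunit, was at 117, 116 and 99.5 CPM against 161, 260 and 129 CPM, and Car9, carbonic anhydrase 9, overlapped between groups (-0.16). Knockout library 2 was the highest knockout library for 8 of the 9 genes. What sets this library apart was not tested.

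**Figure D3:**
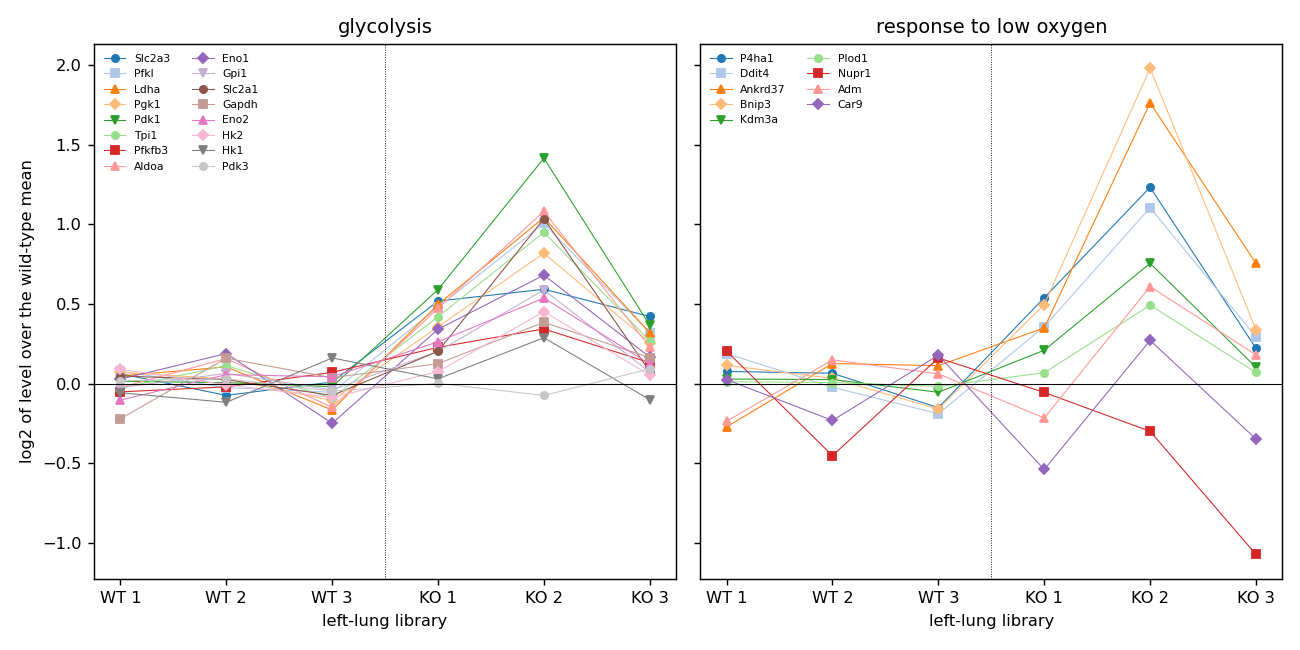
Level of each tested glycolysis gene (left panel, 16 genes) and low-oxygen gene (right panel, 9 genes) in each left library, as log2 over that gene's mean in the wild-type libraries; lines join the values of 1 gene and carry no order. Knockout library 2 stands above the other knockout libraries for 15 and 8 genes.

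Genes of autonomic neurons mostly had negative log2 changes. Of 13 tested genes of autonomic neurons, 12 had a negative log2 change and the median was -1.15, but 1 was called (7.69%, beside 0.534% of all genes). That gene, Calcb, which encodes a form of calcitonin gene-related peptide, was at 2.30, 2.26 and 2.98 CPM in wild type and at 0.58, 0.67 and 0.67 CPM in the knockout (log2 change -1.95, SE 0.29, edgeR adjusted p = 0.0261), and its call was lost whichever library was left out (adjusted p up to 0.115). Stmn2, a microtubule regulator of neurons, was at 12, 6.30 and 8.48 CPM against 3.90, 3.36 and 4.81 CPM (log2 change -1.15, adjusted p = 0.11), without overlap. With the right libraries in the fit 3 members were called. The 8 tested genes of neural crest and Schwann cell precursors had a median of 0.41 and 0 called.

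Macrophage genes also had mostly negative values. Of 18 tested members 17 had a negative log2 change, 9 had non-overlapping groups with the knockout lower (beside 8.23% of all genes), the median was -0.47 and 1 was called (5.56%, beside 0.534%). Laptm5, a lysosomal protein of blood cells, was at 47.6, 45.0 and 45.7 CPM against 34.9, 30.7 and 33.9 CPM (log2 change -0.48, SE 0.081, edgeR adjusted p = 0.0427), and lost its call whichever library was left out (adjusted p 0.0561 to 0.186). Mrc1, the mannose receptor, was at 81.1, 79.8 and 85.7 CPM against 62.8, 44.9 and 60.7 CPM (-0.55, adjusted p = 0.0858), and Spi1, the myeloid transcription factor PU.1, at -0.81 (adjusted p = 0.0992). The complement genes C1qa (-0.16) and C1qc (-0.08) overlapped between groups. Of 8 platelet and megakaryocyte genes 0 were called, with a median of -1.07. Ppbp, a platelet chemokine, was at 13.9, 20.2 and 8.30 CPM against 5.75, 4.41 and 4.52 CPM (-1.53, adjusted p = 0.0692), and Tubb1, the platelet tubulin, at -1.20 (adjusted p = 0.0858). With the right libraries in the fit 4 macrophage and 3 platelet genes were called. The 14 erythroid genes had a median of -0.0076 and 0 called.

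**Figure D4:**
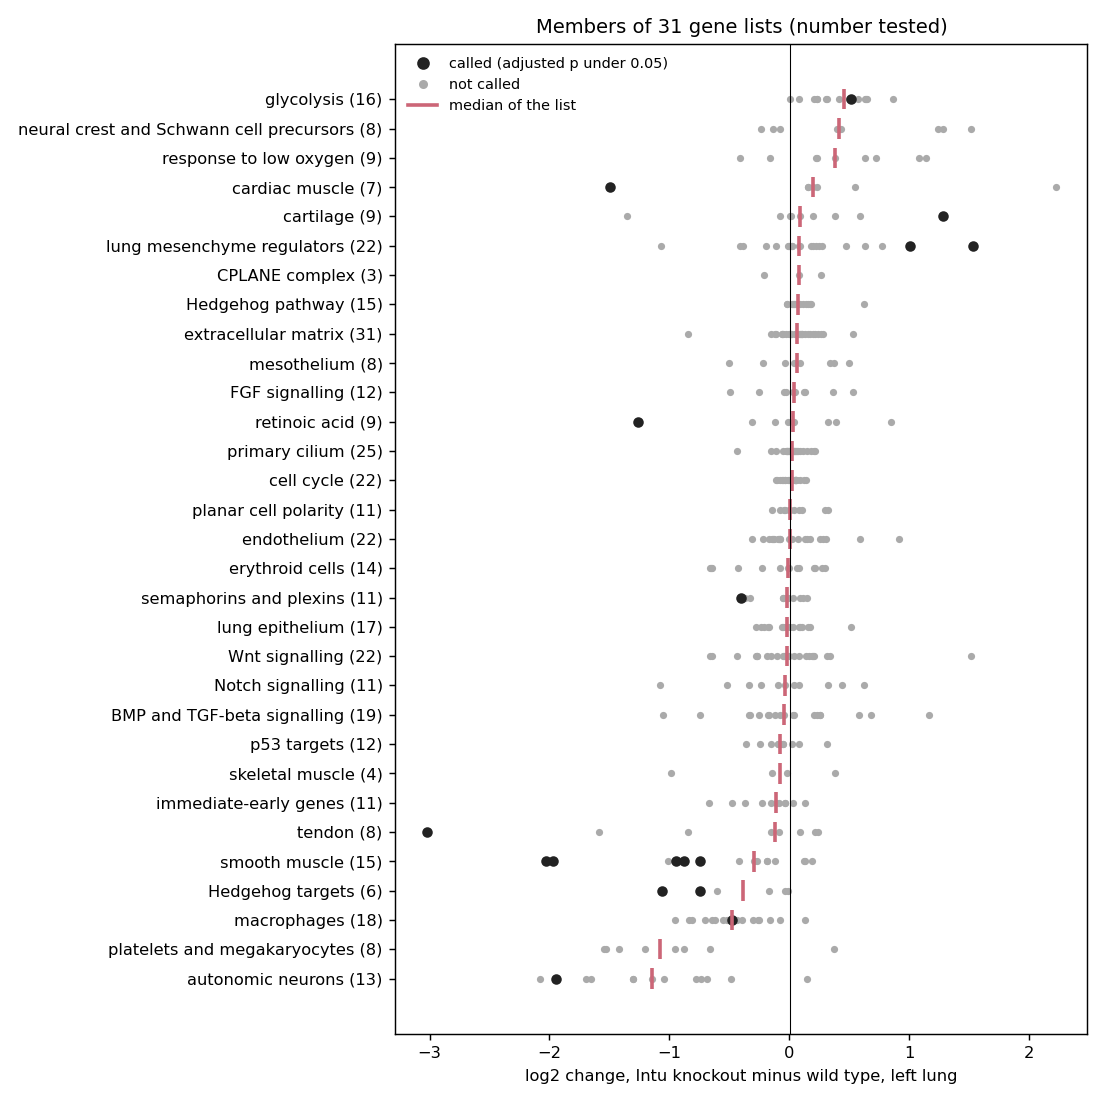
Log2 change (knockout minus wild type, left lung) of each tested member of 31 gene lists, ordered by the list's median (vertical red mark), with the number tested in brackets. Called members are black. Of the 15 smooth muscle genes 5 are called and of the 6 Hedgehog targets 2, all on the lower side, with Hhip in both lists.

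Most other lists held 0 called genes. Of 33 lists 22 had 0 called members, 8 had 1 and 3 had at least 2, and 33 of the 49 called genes were in no list. The 22 cell cycle genes stayed within -0.11 to 0.14 on the log2 scale, with Cenpf, a kinetochore protein, at 0.14 (adjusted p = 0.404). The 17 lung epithelium genes had a median of -0.016, and the 22 endothelial genes one of 0.0081. Of 31 extracellular matrix genes, Fbln2, which encodes fibulin 2, had the smallest p (89.5, 98.9 and 83.0 CPM against 154, 116 and 124 CPM, log2 change 0.53, adjusted p = 0.0764). Of 22 Wnt genes, Wif1, a secreted Wnt inhibitor, was at 4.22, 2.63 and 4.01 CPM against 6.72, 15.4 and 9.04 CPM (1.52, adjusted p = 0.0914). Among 19 BMP and TGF-beta genes, Chrdl1, which encodes a secreted BMP antagonist, was at -0.74 (adjusted p = 0.0826), with groups that did not overlap. Grem1, which encodes another BMP antagonist, was at 1.17 (adjusted p = 0.148). With the right libraries in the fit Chrdl1 (0.0161), Wif1 (0.0325) and Fbln2 (0.0209) had adjusted p under the threshold. In the FGF list Fgf2 was at 0.53 (adjusted p = 0.273) and in the Notch list Rbpj, the shared transcription factor of that pathway, at 0.62 (adjusted p = 0.193).

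Chromosome 3, where Intu lies, held 12 of the 49, out of 837 tested genes (1.43%), beside 37 of 8337 on the other chromosomes (0.444%). Chromosome 6 came next with 9 of 845 (1.07%), and the lowest share was that of chromosome 7 (0.158%). None of the 12 was close to Intu. Within 10 Mb of it 0 of 75 tested genes were called, while 20 of the 75 (26.7%, beside 15.4% of all genes) had groups that did not overlap. Intu itself and Bbs7 and Fgf2, named here for the cilium and FGF lists, are among these 20. The 12 called genes lay 26.8 to 87.0 Mb away on the same side, from Lxn, which encodes a carboxypeptidase inhibitor, to Zgrf1, and 10 of them were lower. Synpo2, Fhdc1, Capza1, Tspan2 and Camk2d, described above, are among them, as is Vps45, a gene of vesicle traffic (38.0, 35.5 and 33.1 CPM against 22.3, 24.3 and 22.1 CPM).

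**Figure D5:**
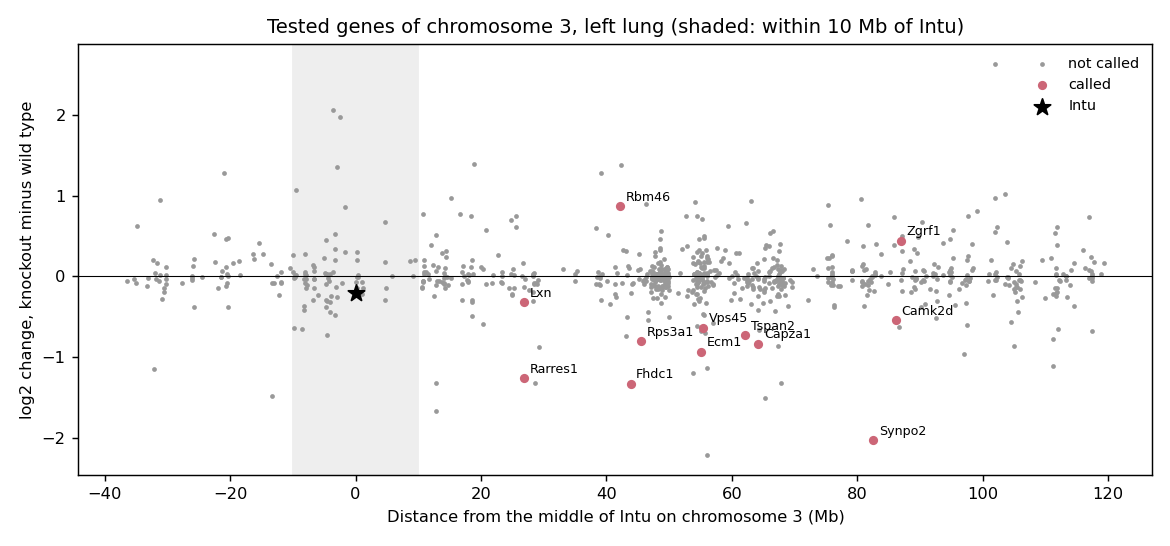
Log2 change (knockout minus wild type, left lung) of the 837 tested genes of chromosome 3 against their distance from the middle of Intu in Mb. The shaded 10 Mb on either side of Intu (star) hold 0 called genes, and the 12 called genes (red) lie 26.8 to 87.0 Mb to one side.

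Whether the change in left lungs differed from that in right lungs was tested as the interaction of genotype and side over all 12 libraries. Of 9519 genes 0 were called (0%), with 124 at an unadjusted p under 0.05 in edgeR's test, and limma-voom also called 0. Both fits treated left and right libraries of one number as independent. On simulated counts edgeR's test called 23.9% of genes given a 1.5-fold side difference and 61.2% of those given a 2-fold one. The simulated libraries were drawn independently, while the real left and right libraries of one number deviated together (correlations of 0.271 to 0.525). These shares may therefore not hold for the real libraries. The 0 does not show that the sides were alike. Right-lung Gli1 was at 359 ± 16.6 CPM in wild type and 164 ± 15.2 CPM in the knockout (SD, n = 3), beside 366 ± 24.6 and 176 ± 9.5 CPM in left lungs. Right-lung Actg2 was at 232 ± 23.6 and 57.3 ± 3.63 CPM, beside 218 ± 25.2 and 55.7 ± 3.79 CPM in left lungs. The interaction of Gli1 was 0.07 and that of Actg2 0.05 on the log2 scale (left minus right). With left and right libraries of one number joined as blocks, 2 genes were called, Gm10705 and Adarb1. In that fit 407 genes had an unadjusted p under 0.05 in edgeR's test. Without blocks and without a filter on low counts 6 genes were called, these 2 among them. Of the 2 genes with the smallest p without blocks, Gm14296 (2.09, adjusted p = 1) and 3830403N18Rik (3.01, adjusted p = 1), neither was called under either fit.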

How the data were processed

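RNA of the left lungs was sequenced in 3 knockout and 3 wild-type libraries. The deposited table holds whole read counts for each gene, without normalisation, made by the authors with FastQC, HISAT2 on GRCm38 and featureCounts, per the submitters' processing notes. No source used here states versions or the strand setting. The table ends within a row on chromosome 8; that 1 row was left out. Symbols matched 30915 of 31078 genes (99.5%).

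The 6 left libraries were fitted alone with edgeR 4.0.16 in R 4.3.3 (filterByExpr with minimum count 10 and minimum total 15, TMM, glmQLFit, glmQLFTest, 4 residual degrees of freedom), with p-values adjusted by Benjamini-Hochberg over all tested genes and a threshold of 0.05. The interaction was fitted over 12 libraries (8 residual degrees of freedom). Scripts were tested on simulated data. Alternatives were DESeq2 1.42.0, limma 3.58.1 voom, other scalings and filters, all 12 libraries, replicate blocks and leaving out each left library.

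Deviations from the group means correlated at 0.271 to 0.525 between a left library and the right one of its number (6 pairs), and at -0.429 to -0.0198 where numbers differed. Deviations cancel out within each group, so positive values for the first make the second negative on balance, and these are no separate evidence. By the values for equal numbers, the numbers pair the sides of a genotype, on the evidence of the data, since the labels do not say so. Across genotypes, left libraries of one number correlated at -0.082 to -0.0561.

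The comparison and the gene lists (817 genes, 460 in the table, 410 tested) were chosen with earlier results of these data known. Lists are described by counts and medians, without a test of the list. Named genes are Intu, Gli1 and Hhip, the 12 largest increases and decreases among called genes, and from each list up to 4 called members or the 2 with the smallest p. Some genes that this rule names are not reported here. Others were named after their values were seen, among them the remaining called genes and Shh, Smo, Gli2, Pdlim3, Des, Ldha, Bnip3, Mrc1, Grem1, Gm10705 and Adarb1. Counting intervals were not computed, since comparisons rest on the spread between libraries.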

Additional observations from a re-analysis of the deposited data

Results flagged for a closer look

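Whether the genotype difference differed between left and right lungs was called for 2 genes when left and right libraries of one number were joined as blocks, and for 6 genes when low counts were not filtered. Gm10705 and Adarb1 were called in both. With the filter and without blocks neither was called, at nearly the same differences (-1.525 for Gm10705 and -0.5184 for Adarb1). The adjusted p without the filter thus turned on low-count genes being kept in the fit, and is no second measure of the spread of these 2 genes. For Gm10705, a predicted gene, the left-minus-right difference of the log2 change was -1.57 (SE 0.20, edgeR adjusted p = 0.000448) with blocks and -1.53 (adjusted p = 8.758e-17) without the filter. Its levels were 41.4, 46.4 and 49.2 CPM in wild-type left, 36.3, 12.7 and 45.5 CPM in knockout left, 20.1, 17.9 and 9.95 CPM in wild-type right and 38.1, 17.5 and 39.6 CPM in knockout right libraries. The left knockout libraries spread widely, and knockout library 2 was the lowest on both sides. For Adarb1, which encodes an enzyme that edits adenosines in RNA, the difference was -0.51 (SE 0.077, edgeR adjusted p = 0.00409) with blocks and -0.52 (adjusted p = 0.00197) without the filter. Its levels were 133, 104 and 136 CPM in wild-type left, 118, 196 and 155 CPM in knockout left, 97.2, 83.8 and 92.1 CPM in wild-type right and 124, 202 and 167 CPM in knockout right libraries. Wild-type levels were higher on the left than on the right for each number, and knockout levels were slightly lower on the left for each number. In the left comparison alone neither was called (edgeR adjusted p = 0.676 for Gm10705 and 0.559 for Adarb1). Without the filter the other 4 called were Afp (2.13) and Alb (3.75), liver genes, and the predicted genes Gm18194 (1.19) and Gm6397 (-2.55 on the log2 scale). Afp and Alb were far higher in 1 left library, knockout library 1, at 45.5 and 40.1 CPM. The other left libraries reached at most 8.37 CPM of Afp and 2.69 CPM of Alb.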

How the results depend on the processing

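All 49 called genes kept their sign under each of the 13 alternatives that tested them, and 10 were called in every one that tested them. The count of 49 was 48 with DESeq2's size factors, 43 with limma-voom and 43 with a stricter filter. It was 163 with DESeq2's test, 186 without a filter on low counts, 112 with all 12 libraries and 24 with the replicate block (22 shared with the 49), and leaving out 1 library gave 11 to 63. The interaction count of 0 was 6 without a filter and 2 with the replicate block, and stayed 0 when any left library was left out. Same-numbered left libraries of the 2 genotypes did not deviate together, so the block of the left fit joins libraries that share only a number. The block of the interaction is another one. It joins left and right libraries of one genotype and number, which did deviate together (correlations of 0.271 to 0.525). Hhip was -0.74 (adjusted p = 0.071) with the replicate block and ranged from -0.85 to -0.68 without single libraries, with values of -0.76 without knockout library 3 and -0.70 without wild-type library 1, where it was not called. Uncalled genes turned in sign: Muc5ac to -0.013, -0.25, -0.17 and -0.068 (without knockout 2, knockout 3, wild type 1 and wild type 3; highest 0.39), 3830403N18Rik to -0.028 and -0.11 (without knockout 1 and wild type 3; highest 0.54), and without knockout 1 Tnni2 to -0.13 (highest 0.82), Nkx6-1 to -0.040 (highest 0.86) and Afp to -0.38 (highest 1.98). The causes were not tested. Of 429 counts of called list members under alternatives, 333 stayed within 1.5 times the main count and 96 did not. The lowest genes named, at about 1 CPM or below, rest on few counts per library.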
